A study of Mus musculus with 31 samples.

Results

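Translational efficiency, the amount of ribosome footprint per amount of mRNA, was measured gene by gene in the cortex of wild-type (WT) mice aged P29 to P34. The 8 libraries were 4 ribosome profiling libraries and 4 polyA-selected mRNA-seq libraries, out of 31 in a study that also holds cortices labelled FXS, S6K1 and DKO. A gene was included when its mean mRNA level over the 4 WT mRNA libraries was at least 5 CPM (counts per 1000000 counts of the library), which held for 11453 of the 20436 genes counted (56.0%). Translational efficiency (TE) was the mean log2 CPM of the footprint libraries minus the mean log2 CPM of the mRNA libraries. A TE of 0 therefore means an equal share of both kinds of library, a TE of 1 a 2-fold larger share of the footprints, and a TE of -1 a 2-fold larger share of the mRNA. No WT animal carried a targeted allele or a treatment in the labels, and whether one animal gave both kinds of library, or whether each library is its own animal, is not in the labels, so the p-values measure the spread between these libraries.

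In ribosome profiling, nuclease digests the mRNA that no ribosome covers, and the protected fragments are sequenced. Footprints per mRNA follow how often ribosomes start on an mRNA and how fast they move along it. Some mRNAs are known to load ribosomes poorly: those with upstream open reading frames that take up scanning ribosomes, those of ribosomal proteins and elongation factors whose 5′ end is a pyrimidine tract (TOP mRNAs) read by the growth pathway that includes S6 kinase, and those with an iron-responsive hairpin near the cap.

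The footprint libraries held 19812525 to 34853751 counts and the mRNA libraries 12134624 to 14012417. Markers of cortical neurons were present in every library: Tbr1, a transcription factor of deep-layer projection neurons, lay at 268 to 349 CPM in footprints and 75.5 to 85.5 CPM in mRNA, and Gad1, the main enzyme of GABA synthesis, at 866 to 1037 and 298 to 397 CPM. Each batch named in the labels held one kind of library, so batch and assay cannot be told apart. Among the mRNA libraries, replicate 1 stood apart: its log2 CPM correlated with the other 3 at 0.967 to 0.971, against 0.985 to 0.988 among those 3. In bulk tissue, fewer cells of a type and less RNA per cell cannot be told apart.

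Footprints followed mRNA across genes, with wide scatter around equality. Across the 11453 genes the rank correlation of footprint and mRNA level was 0.805, a description over genes that share 8 libraries. The median TE was -0.33, a footprint share 0.796 times the mRNA share, with quartiles at -1.17 and 0.39. The 5th and 95th percentiles lay at -2.59 and 1.38, a 15.7-fold range in footprints per mRNA. The median standard error of a TE was 0.136, so the range across genes was much wider than the error of a single TE. This error comes from the spread within each assay and does not hold a bias between assays or batches.

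**Figure D1:**
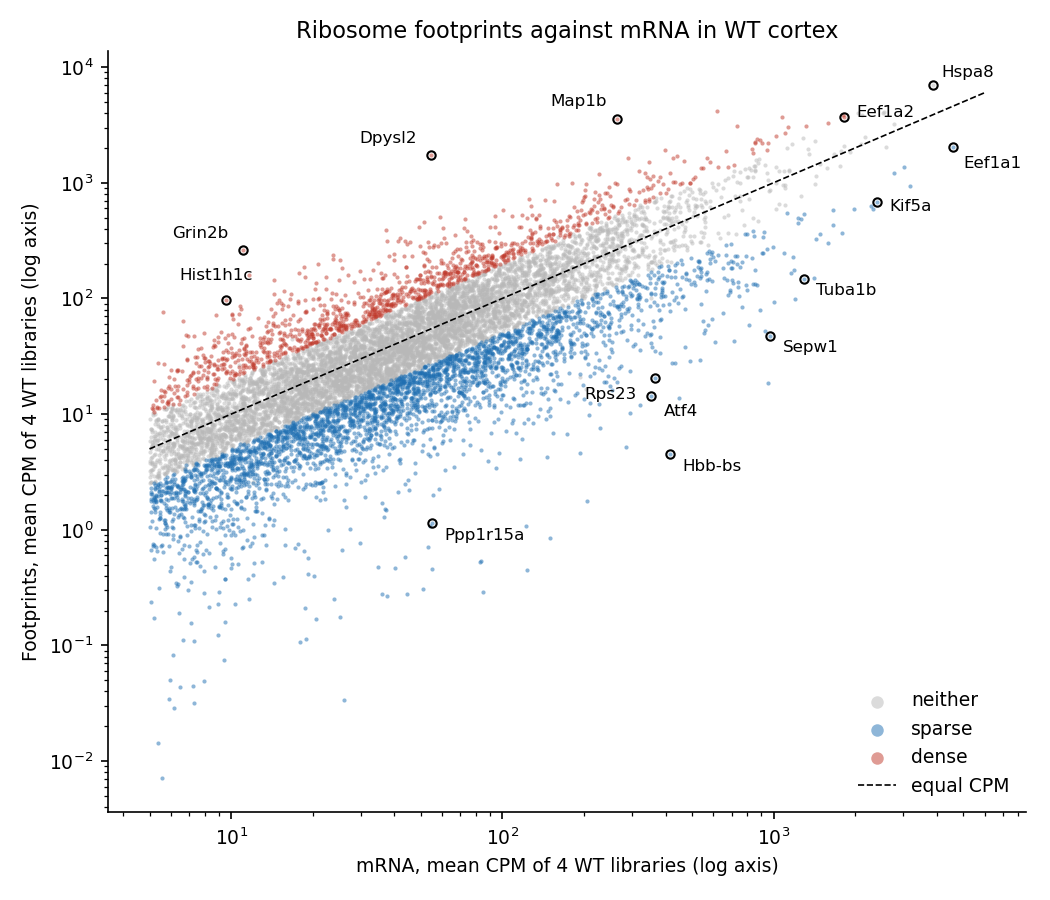
Mean footprint CPM (y axis, log scale) against mean mRNA CPM (x axis, log scale) of 4 WT libraries each, 1 point per gene, without the 27 genes that had no footprint count. Red points are dense genes, blue points sparse genes, and the dashed line marks equal CPM. Dpysl2, Grin2b and Map1b lie far above the line, and Atf4, Sepw1 and Hbb-bs far below it.

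A gene was called dense when edgeR's quasi-likelihood test gave an adjusted p under 0.05 and TE was at least 1, and sparse when the adjusted p was under 0.05 and TE was at most -1. By this rule 1142 genes were dense (9.97%), 3319 were sparse (29%) and 6992 were neither. These 2 percentages are the background against which the calls in every gene class below are read. Without the size limit, 8886 genes passed the test, 3176 with a TE above 0 and 5710 below it. Scaling by TMM factors instead of library totals moved the median TE of all genes from -0.33 to -0.03 and gave 1850 dense (16.2%) and 2516 sparse genes (22%), so gene classes are given here relative to the median gene as well as by their calls.

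TE hardly changed with the mRNA level and rose with the length of genome a gene spans. The median TE was -0.47 among the 1435 genes at 5 to 10 CPM of mRNA, and between -0.33 and -0.24 in every bin from there to 500 CPM. Among the 258 genes at 500 CPM or more, the median was -0.57 and 43.8% were sparse. By gene span, the median TE went from -0.51 in the 1140 genes under 5 kb to 0.24 in the 784 genes of 200 kb or more, of which 26.7% were dense and 18.6% sparse. The rank correlation across genes was 0.0231 with mRNA level and 0.156 with span. Dense genes spanned a median of 53.0 kb and sparse genes 21.9 kb, against 26.5 kb for all genes. mRNA replicate 1 also moved with this property: its log2 CPM minus that of the other 3 mRNA libraries had a median of 0.132 over all genes, 0.257 over dense genes and 0.563 over the 67 genes with a TE of at least 2.5, and the part of this library in the relation to span was not tested. At the threshold itself, the 305 genes from 5 to 6 CPM had a median TE of -0.57 and the 352 genes just outside, from 4 to 5 CPM, of -0.84.

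**Figure D2:**
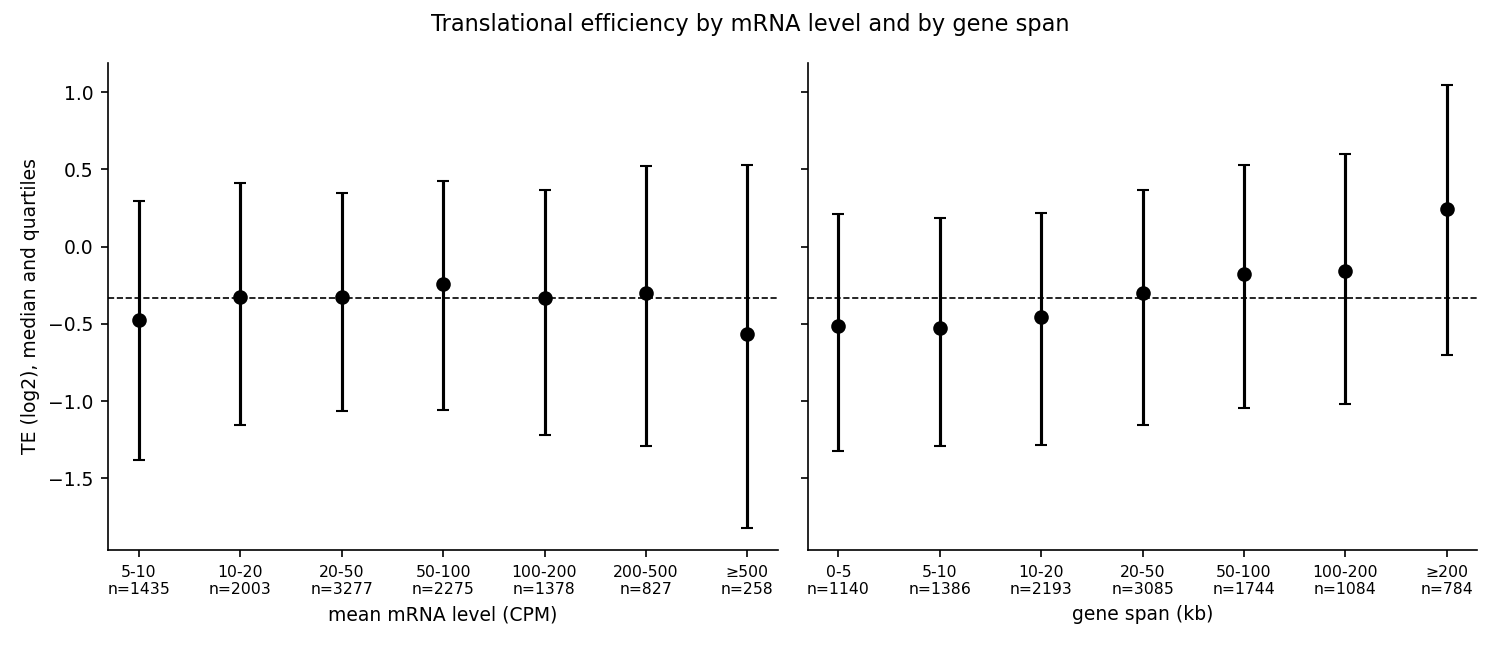
Median TE (points) with quartiles (bars) of genes grouped by mean mRNA level in CPM (left) and by genomic span in kb (right), with the number of genes under each bin. The dashed line is the median of all genes, -0.33. The medians stay close to the line across mRNA levels and reach 0.24 at spans of 200 kb or more.

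The gene classes fell on both sides of the median gene. Among classes with at least 7 measured members, the lowest medians belonged to markers of endothelium (-2.62) and microglia (-2.06), stress-response mRNAs with upstream reading frames (-1.78) and cytosolic ribosomal proteins (-1.68). The highest belonged to immediate early genes (1.11), tubulins, actins and neurofilaments (0.73), glycolysis (0.67) and the synaptic vesicle cycle (0.61).

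**Figure D3:**
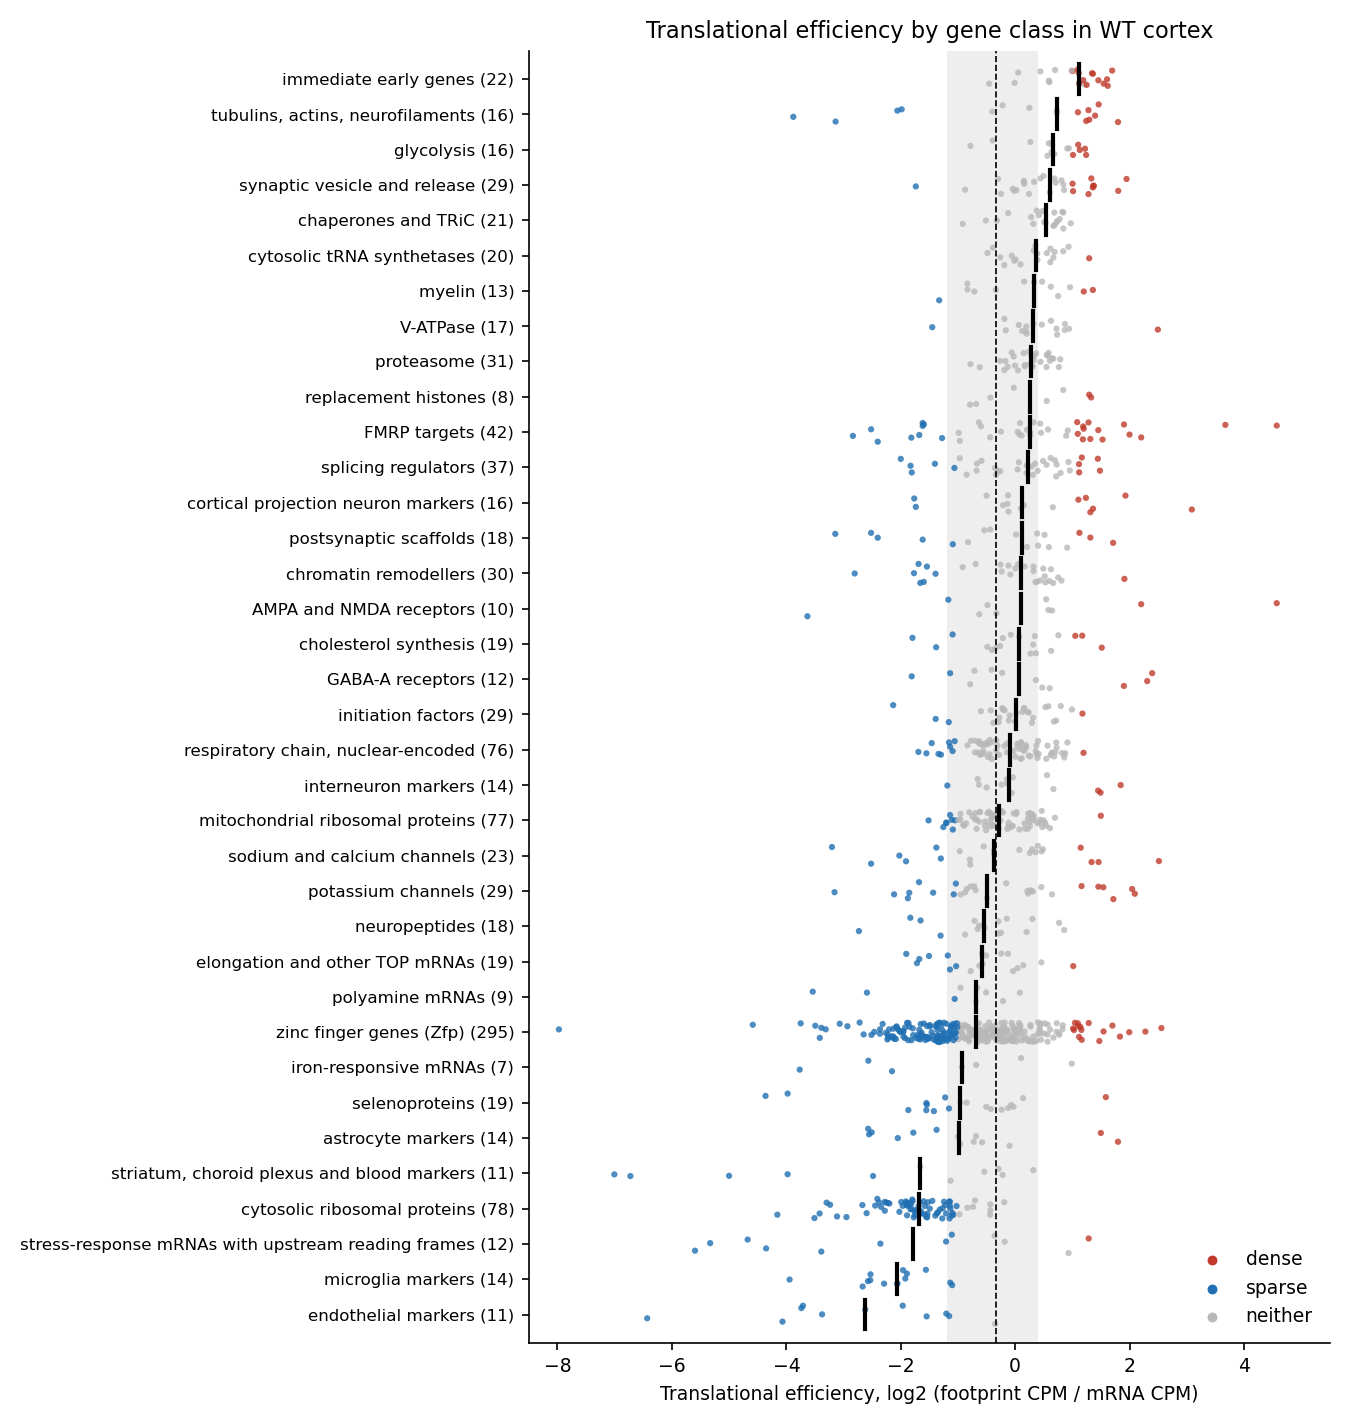
TE (x axis, log2) of every member of the gene classes, 1 row per class ordered by median, with the number of members in parentheses. Points are genes coloured by call, black bars are class medians, the dashed line is the median of all genes and the grey band runs between their quartiles. Ribosomal protein mRNAs lie left of the dashed line except for Rpl39, whereas immediate early genes lie right of it except for Nr4a1.

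Atf4, the transcription factor that carries out the integrated stress response, was among the most sparsely translated abundant mRNAs of the cortex. Its footprints were 13.8, 9.09, 21.4 and 13.6 CPM in replicates 1 to 4, and its mRNA was 382, 353, 332 and 350 CPM. All 4 footprint values lay far below all 4 mRNA values. TE was -4.68 ± 0.256 (SE, n = 4 and 4 libraries), 25.6-fold fewer footprints per mRNA than at equality (adjusted p = 2.4e-09) and percentile 0.925 of all genes.

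Other mRNAs of the same response were about as sparse. Ppp1r15a encodes GADD34, the subunit that directs a phosphatase back to eIF2α. It had 1.36, 1.36, 1.06 and 0.768 CPM of footprints against 56.0, 56.1, 46.7 and 60.6 CPM of mRNA, a TE of -5.60 ± 0.207. Ddit3 encodes CHOP, a proapoptotic factor downstream of Atf4. It had footprints of 3.18, 1.14, 2.29 and 1.87 CPM and mRNA of 51.1, 38.5, 37.2 and 38.5 CPM, for a TE of -4.35 ± 0.326. Atf5, a relative of Atf4 with the same arrangement of upstream reading frames, had a TE of -5.33 ± 0.318 from 0.393 ± 0.189 CPM of footprints (SD, n = 4). Of the measured stress-response genes, 4 overlap another gene in the genome, among them Ddit3 with Mars, Atf5 with Nup62 and Slc35a4 with Apbb3. Since the strand used in counting is not given, reads of overlapping genes cannot be told apart.

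Of the 12 measured mRNAs of this class, 8 were sparse and 1 was dense, against 29% and 9.97% of all genes. Slc35a4 (-3.39 ± 0.0945), whose upstream reading frame is itself translated, Ifrd1 (-2.36 ± 0.114), Ibtk (-1.21 ± 0.155) and Ppp1r15b (-1.11 ± 0.117), the constitutive counterpart of GADD34, completed the sparse group. Bace1 (-0.36) and Mief1 (-0.18) lay near the median gene. Eprs, a tRNA synthetase, stood at 0.93 ± 0.168. Cebpb was the dense member: its footprints were 8.88, 16.6, 10.8 and 19.7 CPM and its mRNA 4.85, 5.18, 5.44 and 6.35 CPM, so the lowest footprint value exceeded the highest mRNA value and TE was 1.29 ± 0.279 (adjusted p = 0.000149). Cebpa fell under the mRNA minimum. Without genes that overlap a neighbour, 5 of the 8 members left were sparse and the class median relative to the median gene went from -1.45 to -0.86.

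**Figure D4:**
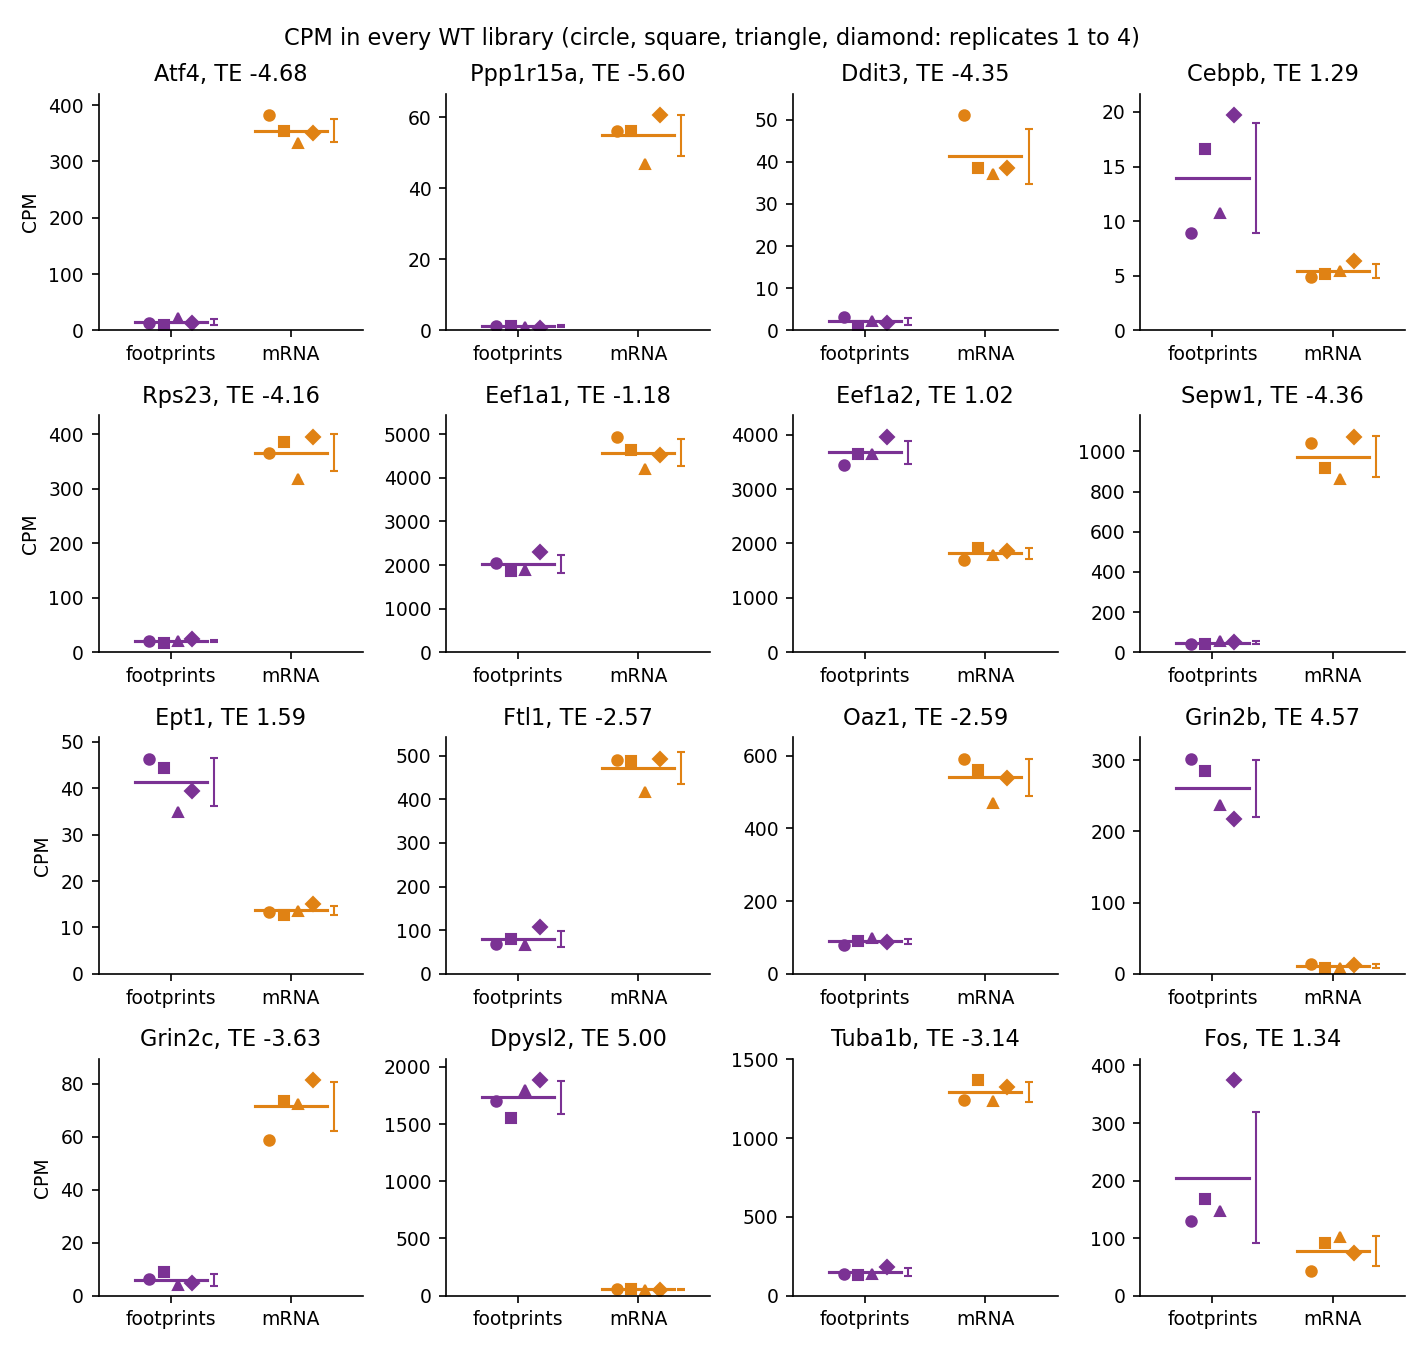
CPM (y axes, each starting at 0) in each of the 4 footprint libraries (purple) and 4 mRNA libraries (orange) for 16 genes, with the mean (horizontal line) and SD (bar), and TE in each title. For every gene shown, the 4 footprint values lie entirely on one side of the 4 mRNA values.

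Ribosomal proteins, the structural proteins of the ribosome, had a low TE with few exceptions. Their summed footprints made up 1.25% of the footprint counts and their summed mRNA 3.89% of the mRNA counts. The sum was 11500, 12000, 13000 and 13700 CPM in the 4 footprint libraries and 39700, 41500, 35400 and 38900 CPM in the 4 mRNA libraries, with no overlap. Of the 78 measured members, 70 were sparse and none was dense. All but 1 lay below the median gene. The median was -1.68, with quartiles at -1.98 and -1.25, and 56 members were sparse under TMM scaling.

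To show the known regulatory element, the first bases of some of these mRNAs are printed, from 10 bases before the RefSeq start to 20 bases from it on (GRCm38.p6, 5′ to 3′ on the gene's strand). Capitals mark a run of at least 5 pyrimidines that begins with C exactly at the annotated start, the form of a TOP tract. The 2 lowest ribosomal protein mRNAs by TE, Rps23 and Rpl37, are shown for comparison and had no such run at the annotated start.
Rps6 at chr4:86857348-86857377, minus strand: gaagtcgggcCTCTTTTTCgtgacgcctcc
Rps10 at chr17:27635225-27635254, minus strand: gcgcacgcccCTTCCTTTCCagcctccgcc
Rpl35 at chr2:39005112-39005141, minus strand: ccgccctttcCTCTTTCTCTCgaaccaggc
Rps15a at chr7:118116128-118116157, minus strand: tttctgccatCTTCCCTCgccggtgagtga
Rps27 at chr3:90213629-90213658, minus strand: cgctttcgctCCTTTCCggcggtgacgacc
Rpl15 at chr14:18270967-18270996, minus strand: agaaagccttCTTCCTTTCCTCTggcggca
Fau at chr19:6057937-6057966, plus strand: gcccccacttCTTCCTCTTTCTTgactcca
Rps23 at chr13:90923112-90923141, plus strand: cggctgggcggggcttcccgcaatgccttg
Rpl37 at chr15:5116603-5116632, plus strand: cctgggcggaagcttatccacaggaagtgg

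Such a start was found in 14 of the 57 ribosomal protein genes with a RefSeq start (24.6%), against 275 of all 9184 genes with one (2.99%), on the gene's own strand only. The 14 had a median TE of -1.41 and the other 43 of -1.77. Over all genes the medians were -0.35 with the start and -0.34 without. A match describes the annotated start, which can differ from the start used in cortex, and a missing match says only that these letters are not there.

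Within the class, TE ran from Rps23 to Rpl39. Rps23, a protein of the decoding site, had 21.3, 17.3, 19.97 and 23.7 CPM of footprints against 366, 385, 318 and 395 CPM of mRNA, a 17.8-fold difference (TE -4.16 ± 0.117). Rpl37 followed at -3.51 ± 0.145. Rps6, the protein that S6 kinase phosphorylates, had 253, 272, 355 and 283 CPM of footprints and 690, 717, 617 and 659 CPM of mRNA, which gave a TE of -1.22 ± 0.116. Rpl4 stood close to it at -1.32 ± 0.067. At the upper end were Rpl27 (-0.43 ± 0.0895), Rpl15 (-0.44 ± 0.107) and Rpl39 (-0.19 ± 0.175). The first pair passed the test with library totals and not with TMM factors, and the footprint and mRNA values of Rpl39 overlapped. Many ribosomal protein genes have near-identical processed pseudogenes, and how reads that fit several places were counted is not given. The values of single members and the level of the class are therefore uncertain, and the part of such reads in them was not tested.

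**Figure D5:**
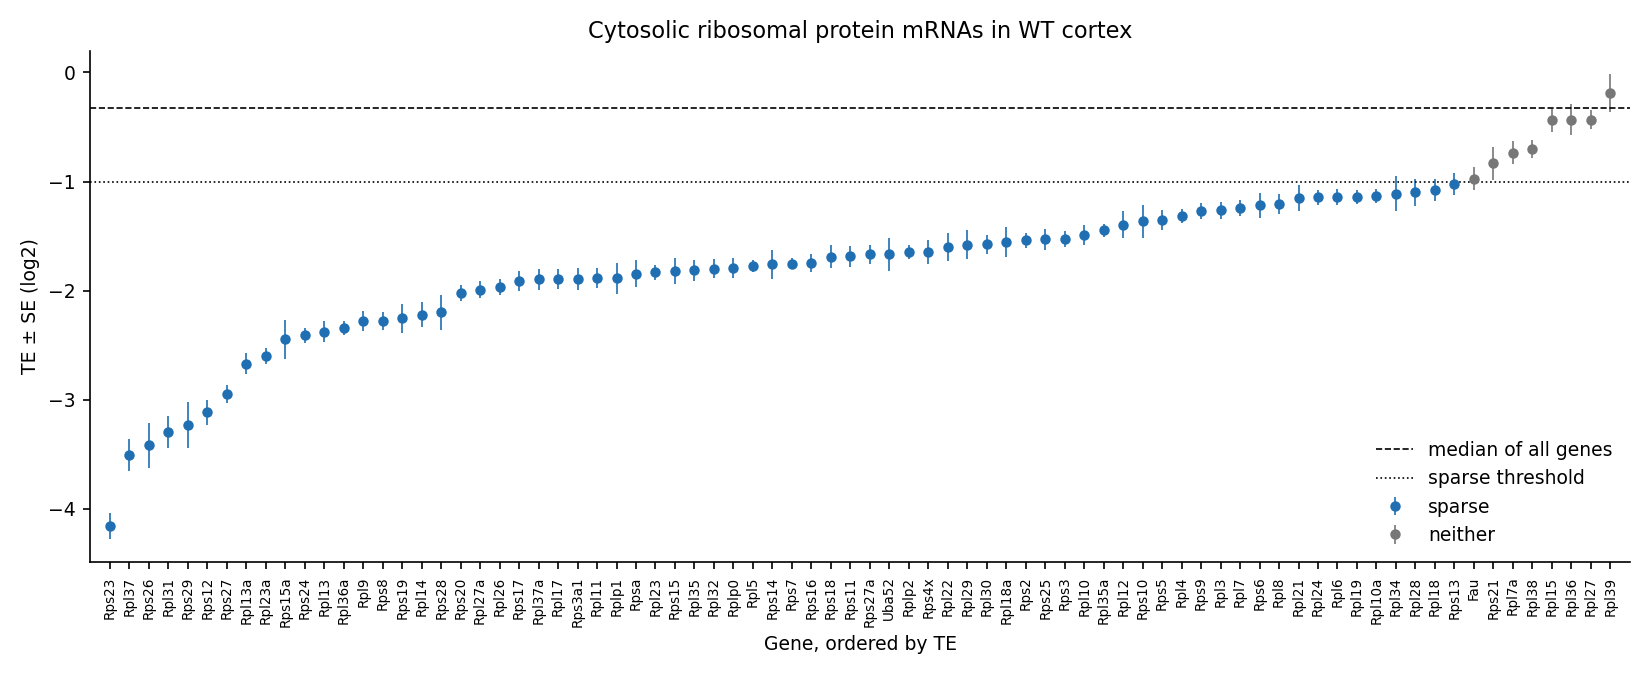
TE ± SE (y axis, log2) of the 78 measured cytosolic ribosomal protein mRNAs, ordered by TE, with the median of all genes (dashed) and the sparse threshold (dotted). Blue members are sparse and grey members are neither. The series runs from Rps23 at -4.16 to Rpl39 at -0.19 and the 70 sparse members lie below the dotted line.

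The remaining translation machinery did not share one level. The 19 elongation factors and other TOP mRNAs had a median of -0.58, with 7 sparse and 1 dense. The 2 genes for elongation factor 1A, which carries aminoacyl-tRNA to the ribosome, stood on opposite sides. Eef1a1, the form found in most tissues, had footprints of 2046, 1872, 1886 and 2309 CPM and mRNA of 4944, 4650, 4198 and 4516 CPM (TE -1.18 ± 0.0858). Eef1a2, the form of adult neurons and muscle, had footprints of 3447, 3646, 3646 and 3964 CPM and mRNA of 1696, 1916, 1788 and 1871 CPM (TE 1.02 ± 0.0569). The order of the 2 assays was thus opposite in every library, although the 2 coding sequences are similar and short footprints could be assigned to either gene. Eef1g (-1.90), Pabpc1, the polyA-binding protein (-1.72 ± 0.0815), and Tpt1 (-1.03 ± 0.0844) were sparse, and Eif3l stood at 0.46.

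The 29 initiation factors had a median of 0.02, with 3 sparse and 1 dense. Eif4g2, a relative of the scaffold eIF4G that lacks the cap-binding partner's site, was lowest: footprints of 321, 302, 381 and 299 CPM against mRNA of 1768, 1336, 1435 and 1204 CPM (TE -2.13 ± 0.142). Eif5, the GTPase activator of the scanning complex, followed at -1.39. Eif3c was dense at 1.18 ± 0.0789, and Eif2s1, the α subunit of eIF2, stood at 0.99. The 20 cytosolic tRNA synthetases had a median of 0.37 with none sparse. Kars (-0.48) and Qars (-0.39) were their lowest members and Wars (1.30 ± 0.092, dense) and Eprs their highest.

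Selenoproteins, which carry selenocysteine at a UGA codon that otherwise ends translation, were below the median gene in 13 of 19 cases. Of the 19, 9 were sparse and 1 was dense. Sepw1, a small selenoprotein abundant in brain, had footprints of 39.9, 42.4, 57.0 and 51.0 CPM and mRNA of 1043, 919, 861 and 1073 CPM, a 20.6-fold difference (TE -4.36 ± 0.141). Sepp1, the secreted carrier of selenium, had a TE of -3.98 ± 0.231. The glutathione peroxidases Gpx4 (-1.55 ± 0.0577) and Gpx1 (-1.42) were also sparse, as were Sep15 (-1.87), Sephs2 (-1.55), Vimp (-1.54), Selm (-1.22) and Dio2 (-1.16), the deiodinase that activates thyroid hormone. Sepn1 (-0.96), 2700094K13Rik (-0.85), Selt (-0.50), Txnrd2 (-0.42), Selo (-0.24), Msrb1 (-0.12), Txnrd3 (-0.07), Selk (-0.03 ± 0.0741) and the thioredoxin reductase Txnrd1 (0.14 ± 0.103) were neither. Under TMM scaling Selk turned to 0.28 (adjusted p = 0.0197) and Txnrd1 to 0.44 (adjusted p = 0.00202). Ept1, a phospholipid synthesis enzyme, was the dense member, with footprints of 46.4, 44.4, 34.9 and 39.4 CPM against mRNA of 13.3, 12.6, 13.6 and 15.1 CPM (TE 1.59 ± 0.107).

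Among the 7 measured mRNAs with iron-responsive elements, 3 were sparse (42.9%) and none was dense, with a class median of -0.93. In this system a hairpin in the 5′ leader blocks initiation when iron is low, whereas hairpins in the 3′ end of Tfrc stabilise that mRNA. The ferritin light chain Ftl1 had footprints of 69.5, 80.9, 66.3 and 107 CPM and mRNA of 490, 487, 417 and 494 CPM (TE -2.57 ± 0.166). The iron exporter Slc40a1 stood at -3.77 ± 0.352 and Cdc42bpa, a kinase with the element in its 3′ end, at -2.15. Slc11a2 (-0.93) and Epas1 (-0.68) were neither. The transferrin receptor Tfrc had footprints of 145, 203, 113 and 121 CPM against mRNA of 61.5, 68.9, 83.6 and 72.6 CPM, all footprint values above all mRNA values, and a TE of 0.99 ± 0.211, just under the size limit for dense.

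The 9 polyamine mRNAs, some of which are known to be translated according to polyamine levels, included 3 sparse (33.3%) and no dense members. This sparse share was near that of all genes (29%). Their median was -0.69, or -0.36 relative to the median gene. Sat1, which acetylates spermidine for export, was lowest with 4.09, 5.56, 4.53 and 3.98 CPM of footprints against 57.6, 50.02, 42.8 and 61.6 CPM of mRNA (TE -3.54 ± 0.159). Oaz1 encodes antizyme, which needs a frameshift for its full-length protein. It had 80.1, 91.3, 98.0 and 88.8 CPM of footprints against 592, 559, 470 and 539 CPM of mRNA (TE -2.59 ± 0.0931). Odc1, the ornithine decarboxylase that antizyme inhibits, stood at -1.06 ± 0.12. Oaz2 (-0.95), Azin2 (-0.68), Azin1 (-0.66), Sms (-0.51), Amd1 (-0.21) and the spermidine synthase Srm (0.08 ± 0.089) were neither.

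The abundant cytosolic enzymes of the cortex lay above the median gene. Glycolysis had 5 dense and no sparse members of 16 and a median of 0.67. The neuronal enolase Eno2 had footprints of 1983, 1879, 1926 and 2086 CPM and mRNA of 805, 867, 866 and 793 CPM, so that footprints were 2.36-fold higher in share with little spread (TE 1.24 ± 0.047). Lactate dehydrogenase A, Ldha, was dense at 1.22 ± 0.0943. The astrocyte aldolase Aldoc, at -0.78 ± 0.166, and Eno1, at -0.39, were the only 2 members of the list below the median gene. The 31 proteasome subunits spanned only -0.78 (Psmc1) to 0.79 (Psmd11), with none dense and none sparse at these thresholds and a median of 0.29. Psmc5 (-0.62) and Psmd13 (0.76) were next to these ends.

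Chaperones, a list not limited to the cytosol, had a median of 0.53 and no dense or sparse member of 21 under library totals. Under TMM factors 7 were dense, where 16.2% of all genes were dense. Hsp90aa1 (0.97) and Hspa8 (0.84 ± 0.0895), the constitutive cytosolic HSP70, were highest. The endoplasmic reticulum chaperone Hsp90b1 (-0.92) and the mitochondrial Hspe1 (-0.51) were lowest. The 17 subunits of the V-ATPase, the proton pump of lysosomes and synaptic vesicles, had a median of 0.32 with 1 dense and 1 sparse, and 6 dense under TMM factors. Its catalytic subunit Atp6v1a stood far above the rest: footprints of 1590, 1570, 1518 and 1899 CPM against mRNA of 289, 295, 306 and 274 CPM, a 5.64-fold ratio (TE 2.495 ± 0.08). Atp6v1h followed at 0.94, and the membrane subunits Atp6v0b (-1.45) and Atp6v0e (-0.19) were lowest.

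Nuclear-encoded mitochondrial proteins lay close to the median gene. The 76 respiratory chain subunits had a median of -0.08, 0.25 above the median gene, with 9 sparse and 1 dense. Their sum was 2.14% of footprint counts and 2.12% of mRNA counts. Atp5k (-1.69 ± 0.192) and Cox7c (-1.55) were lowest, and Atp5g3 (0.91) and Uqcr11 (1.20 ± 0.276, dense) highest. The 77 mitochondrial ribosomal proteins had a median of -0.28, 0.04 above the median gene, with 8 sparse and 1 dense, from Mrpl42 (-1.51 ± 0.18) and Mrps24 (-1.25) to Mrpl34 (0.70) and Mrpl36 (1.498 ± 0.178). The cytosolic ribosomal proteins, by contrast, lay 1.35 below the median gene. These class differences were described and not tested.

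Of the 16 tubulin, actin and neurofilament mRNAs 7 were dense and 4 sparse. Actb (1.80 ± 0.119) and the β-tubulin Tubb4a (1.46 ± 0.0853) were the highest. Actb had footprints of 3438, 3275, 3821 and 4415 CPM against mRNA of 1148, 1161, 942 and 1033 CPM. Tuba1c (-3.88), Tuba1b (-3.14 ± 0.118), Tubb2b (-2.06) and Tuba1a (-1.98 ± 0.0773) were the 4 sparse members, and the 4 neurofilament mRNAs, from Nefh (-0.40) to Ina (0.73), were neither. Tuba1b had footprints of 137, 131, 140 and 185 CPM and mRNA of 1241, 1367, 1237 and 1325 CPM. Tuba1a, Tuba1b and Tuba1c are near-identical in coding sequence, as are Tubb2a and Tubb2b, so a short footprint may not be assignable to one of them and their values are uncertain. Tuba4a, a more divergent α-tubulin, stood at 1.40.

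Of the 29 mRNAs of the synaptic vesicle cycle, 9 were dense and 1 was sparse. Napb, the brain form of SNAP that recycles fusion complexes with NSF, was highest, with footprints of 779, 836, 842 and 894 CPM against mRNA of 276, 195, 220 and 187 CPM (TE 1.95 ± 0.133). Nsf itself stood at 1.37 ± 0.0538. The sparse member was Slc17a7, the vesicular glutamate transporter of cortical projection neurons, with footprints of 608, 721, 501 and 552 CPM against mRNA of 1576, 1952, 2136 and 2272 CPM (TE -1.74 ± 0.161). The active-zone scaffold Rims1 was next at -0.88 ± 0.135.

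AMPA and NMDA receptor subunits differed widely in TE, with 2 dense and 2 sparse of 10. Grin2b, the NMDA receptor subunit of early and extrasynaptic receptors, had footprints of 302, 285, 236 and 218 CPM against mRNA of only 14.2, 8.87, 8.73 and 12.3 CPM. That is a 23.8-fold ratio (TE 4.57 ± 0.207, adjusted p = 1.2e-10), the second highest of all genes. Grin2a, the subunit of mature synapses, followed at 2.20 ± 0.259. Grin2c, a subunit of cerebellum and astrocytes, had footprints of 6.11, 9.05, 4.16 and 4.61 CPM against mRNA of 58.7, 73.3, 72.3 and 81.3 CPM, a TE of -3.63 ± 0.269. Grin2d was sparse at -1.17. The other 6 of the 10 AMPA and NMDA receptor subunits lay between -0.63 (Gria4) and 0.65 (Gria3). Among 12 GABA-A receptor subunits, Gabrb1 (2.40), Gabrb2 (2.31 ± 0.147) and Gabrg3 (1.90) were dense, and Gabra5 (-1.81 ± 0.185) and Gabra4 (-1.14) sparse.

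The 29 potassium channel mRNAs included 6 dense (20.7%) and 8 sparse (27.6%), a sparse share near that of all genes, from the brain-specific Kcnh3 (-3.16 ± 0.145) and Kcna5 (-2.12) to Kcnh7 (2.05) and the axonal channel Kcna2 (2.09 ± 0.243). Kcnh3 had footprints of 38.3, 39.7, 32.4 and 32.7 CPM against mRNA of 253, 323, 325 and 384 CPM. Kcna2 had 99.2, 126, 83.5 and 85.0 CPM of footprints against 33.0, 17.5, 19.4 and 23.7 CPM of mRNA. The 23 sodium and calcium channel mRNAs included 4 dense (17.4%) and 6 sparse (26.1%). Cacna1g, a T-type channel, was among the sparse members at -2.52. Cacna1e, the R-type calcium channel, was highest at 2.51 ± 0.164 and Cacna2d1 next at 1.46.

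Of the 18 postsynaptic scaffold mRNAs 3 were dense (16.7%) and 5 sparse (27.8%), a sparse share near that of all genes. Their median was 0.11, 0.44 above the median gene. Dlg4 encodes PSD-95, the central scaffold of excitatory synapses. It had footprints of 329, 281, 307 and 284 CPM and mRNA of 1729, 1509, 1514 and 1592 CPM, 5.29-fold fewer footprints per mRNA than at equality (TE -2.40 ± 0.0708). Dlgap3 (-3.14 ± 0.154), Shank1 (-2.52) and Shank3 (-1.62) were also sparse. Camk2a (1.32 ± 0.135) and Camk2b (1.71 ± 0.056), the kinase subunits of the same density, were dense, with Camk2a at 2225, 2609, 2500 and 2718 CPM of footprints and 998, 832, 992 and 1248 CPM of mRNA. The relative Dlgap2 was dense too, at 1.12.

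The 42 mRNAs bound by FMRP, the RNA-binding protein lost in fragile X syndrome, held 14 dense (33.3%) and 9 sparse (21.4%) members, with a median of 0.26. Grin2b and Map1b were highest, and Shank1 was among the sparse members. Map1b, a microtubule protein of growing axons, had footprints of 5811, 2566, 3150 and 2744 CPM and mRNA of 276, 244, 282 and 255 CPM (TE 3.68 ± 0.274), the first footprint library being well above the other 3. The list spans a median of 93.2 kb, against 26.5 kb for all genes. Of the 18 neuropeptide and granin mRNAs none was dense and 4 were sparse, with a median of -0.55. Pcsk1n, the precursor of a convertase inhibitor, was lowest (-2.73 ± 0.241), Penk next (-1.83), and Adcyap1 (0.77) and Vgf (0.86 ± 0.236) highest. mRNA replicate 1 was lower than the others for this class, with a median log2 difference of -0.592, and without it 4 were sparse and none dense. Without mRNA replicate 2, or without footprint replicate 4, only 2 were sparse. Penk, the enkephalin precursor, had 197 CPM of footprints in replicate 1 against 41.8 to 67.3 CPM in the others and 201 CPM of mRNA in replicate 1 against 297 to 309 CPM, and it no longer passed the test without mRNA replicate 2 (adjusted p = 0.0549), footprint replicate 3 (adjusted p = 0.0576) or footprint replicate 4 (adjusted p = 0.0606).

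Immediate early genes, transcribed within minutes of neuronal activity, had the highest median of these classes, 1.11. Of 22, 13 were dense and none was sparse. Arc, a synaptic plasticity protein, had footprints of 267, 358, 291 and 737 CPM and mRNA of 129, 182, 252 and 166 CPM (TE 1.095 ± 0.387). Fos had footprints of 130, 169, 146 and 374 CPM and mRNA of 42.6, 90.9, 102 and 73.3 CPM (TE 1.34 ± 0.443). Egr1 had footprints of 713, 685, 936 and 1465 CPM and mRNA of 266, 365, 450 and 352 CPM (TE 1.36 ± 0.296). For all 3 the lowest footprint value exceeded the highest mRNA value, and the footprint library of replicate 4 was the highest.

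The summed level of the class was 2610, 2740, 3220 and 5620 CPM in the footprint libraries and 1470, 1680, 2050 and 1700 CPM in the mRNA libraries. Without footprint replicate 4, 9 of the 22 were dense and the class stood 1.11 above the median gene, compared with 1.44 with it. Without mRNA replicate 1, 10 were dense and Arc stood at 0.94 (adjusted p = 0.0531). Tested against the 2-fold limit itself, 4 were dense. Fosl2 (1.70 ± 0.407) and Dusp6 (1.62 ± 0.252) were highest. The nuclear receptor Nr4a1 was the lowest at -0.45 ± 0.523: its footprints of 89.8, 83.1, 128 and 368 CPM straddled its mRNA of 175, 192, 256 and 144 CPM, and without footprint replicate 4 its TE was -0.93 (adjusted p = 0.0012). Npas4 was next at -0.01 ± 0.354.

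Of 30 chromatin remodellers 7 were sparse (23.3%) and 1 was dense (3.33%), against 29% and 9.97% of all genes. Their median was 0.11, 0.44 above the median gene. Chd3, a remodelling ATPase, had footprints of 190, 142, 187 and 146 CPM against mRNA of 1254, 988, 1131 and 1255 CPM (TE -2.80 ± 0.14). Setd5 followed at -1.77, and the acetyltransferase Crebbp (1.91 ± 0.198) was highest. Of 37 splicing regulators 5 were dense and 5 sparse, and 10 were dense under TMM factors (16.2% of all genes). Their median was 0.22, 0.55 above the median gene. Srsf9 (-1.999) and Clk4 (-1.83) were lowest, and Srrm2 (1.45) and Srsf3 (1.48 ± 0.131) highest. Clk1, a kinase of splicing factors, stood at -1.81 ± 0.338 with footprints of 13.3, 13.2, 12.7 and 31.9 CPM. The 295 zinc finger genes named Zfp, most of them DNA-binding repressors, had a median of -0.69, with 115 sparse (39.0%) and 17 dense (5.76%). Zfp871 (2.56) and Zfp275 (2.28) were their highest members. Their lowest were Zfp433 (-4.59) and Zfp781, which had no footprint count.

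Most replication-dependent histone genes fell outside the measure of TE. Their mRNAs end in a stem-loop in place of a polyA tail, and the mRNA libraries were polyA-selected. Of 29 such genes counted, only 3 reached the mRNA minimum, so TE was not defined for the other 26. Of these, 22 had a higher mean CPM of footprints than of mRNA, and 14 had footprints of at least 5 CPM. Among all 8983 genes under the mRNA minimum, 218 had footprints of at least 5 CPM. Being under this minimum itself favours footprints above mRNA, and the share of all such genes with footprints above mRNA is not given here. Hist1h1e, a linker histone, had 163 CPM of footprints over the 4 libraries pooled against 0.727 CPM of mRNA, and Hist1h4c had 86.0 CPM of footprints and no mRNA count, at least 1500-fold higher when 3 counts over the 4 mRNA libraries are taken as the floor. Hist1h1c, which passed the minimum, had footprints of 75.05, 108, 104 and 97.5 CPM and mRNA of 12.4, 9.11, 8.16 and 8.49 CPM (TE 3.33 ± 0.18). The sparse one of the 3, Hist1h2bc, had no footprint count against 12.9 CPM of mRNA, and Hist2h3c1, under the minimum, had none against 67 mRNA counts. Histone copies are near-identical within each type, so reads cannot be assigned with certainty. The 8 replacement histones, whose mRNAs are polyadenylated, had a median of 0.27, from H2afy (-0.79) and H3f3a (-0.68) to H2afx (1.29) and H3f3b (1.33).

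Cholesterol synthesis and myelin sat near or above the median gene. The 19 cholesterol synthesis mRNAs had a median of 0.07 with 3 dense and 3 sparse. Acat2, an acetoacetyl-CoA thiolase, was lowest at -1.80 ± 0.0651 and Sqle next at -1.38, whereas Hsd17b7 (1.51) and Hmgcs1 (1.17 ± 0.136), which makes HMG-CoA, were highest. Hmgcs1 had footprints of 643, 656, 646 and 658 CPM against mRNA of 300, 304, 344 and 221 CPM. The 13 myelin mRNAs had a median of 0.33. Cnp (1.36 ± 0.0897) and Ermn (1.20) were dense. Mobp (-1.33 ± 0.126) was sparse, and Mog (-0.84) came next.

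All 14 microglia markers were sparse and 10 of 11 endothelial markers were. Tyrobp, a microglial signalling adaptor, had footprints of 0.808, 1.17, 1.09 and 0.960 CPM against mRNA of 12.98, 16.4, 14.3 and 19.7 CPM (TE -3.94 ± 0.172), and the growth factor receptor Csf1r had 20.6, 39.9, 19.8 and 27.1 CPM against 42.5, 113, 122 and 154 CPM (TE -1.92 ± 0.472). C1qb followed Tyrobp at -2.67, and Cx3cr1 (-1.13) and Aif1 (-1.10 ± 0.16) were highest. Of the endothelial markers, Ly6c1 (-6.43 ± 0.593) and the adhesion molecule Pecam1 (-4.07 ± 0.521) were lowest. Kdr (-1.15) and the glucose transporter Slc2a1 (-0.35 ± 0.359) were highest. mRNA replicate 1 was low for both lists, with median log2 differences from the other 3 mRNA libraries of -1.18 for microglia and -1.34 for endothelium. Without it, 13 of 14 microglia and 10 of 11 endothelial markers were sparse, the lists stood at -2.06 and -2.77 relative to the median gene rather than at -1.73 and -2.29, and Slc2a1 passed the test at -0.65 (adjusted p = 0.00449). The animals' own mix of cells in the 2 assays cannot be told apart from translation here.

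Neuronal markers lay higher. Of 16 projection neuron markers 6 were dense and 2 sparse. Rorb, a layer 4 nuclear receptor, had footprints of 68.1, 73.6, 76.3 and 72.4 CPM against mRNA of 12.3, 8.95, 7.499 and 6.28 CPM (TE 3.09 ± 0.209), and Tbr1 stood at 1.93 ± 0.0878. Cux1 (-1.76) was lowest, beside Slc17a7. Of 14 interneuron markers Gad2 (1.84 ± 0.18), Reln (1.49) and Gad1 (1.45 ± 0.117) were dense, Dlx1 (-1.19) was sparse and Npy (-0.66) was next. Of 14 astrocyte markers 6 were sparse and 2 dense, with a median of -0.98, or -0.65 relative to the median gene. Gjb6, a gap junction protein (-2.57 ± 0.231), and Ntsr2 (-2.55) were lowest, and Sox9 (1.5 ± 0.146) and the glutamate transporter Slc1a2 (1.80 ± 0.197) highest.

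Genes of blood, striatum and choroid plexus checked what else the tissue held. Hbb-bs, an adult β-globin, had footprints of 4.79, 1.70, 3.21 and 8.26 CPM against mRNA of 427, 436, 493 and 304 CPM, a 106-fold difference (TE -6.73 ± 0.501), and its near-identical neighbour Hbb-bt stood at -7.01 ± 0.484. The striatal receptor Drd2 had footprints of 5.30, 0.0757, 0.918 and 0.912 CPM and mRNA of 27.8, 23.1, 28.3 and 25.4 CPM. Ttr, the choroid plexus carrier protein, ranged from 2.06 to 567 CPM between mRNA libraries and from 9.64 to 32.9 CPM between footprint libraries. In all, 5 of these 11 markers were sparse and none was dense. Ppp1r1b stood at -0.22.

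Dpysl2 had the highest TE of all genes. It encodes CRMP2, a microtubule-binding protein of axons. Its libraries held footprints of 1699, 1553, 1802 and 1883 CPM against mRNA of 61.8, 58.1, 48.1 and 49.4 CPM, a 32.0-fold ratio (TE 5.00 ± 0.107, adjusted p = 3.35e-12). After Dpysl2 and Grin2b came Gucy1a2, a subunit of the nitric oxide receptor (3.86 ± 0.276), Plcxd3 (3.81 ± 0.333), Map1b, the kinase Pak3 (3.43 ± 0.272), D10Bwg1379e (3.41 ± 0.177), the diacylglycerol kinase Dgkh (3.38 ± 0.242), Gatad2b, a subunit of a chromatin repressor (3.34 ± 0.189), and Hist1h1c. Dpysl2 overlaps Pnma2 in the genome. For 9 of these 10 genes, all but Map1b, the mRNA of replicate 1 was the highest of the 4, as with 18.9 CPM against 8.21 to 9.97 CPM for Gucy1a2. The deposited tables are labelled as counts over coding sequences, with no further definition of the counted region.

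The 10 lowest values all belonged to genes with mRNA and no footprint count: Entpd4, Srp54a, Cxx1a, Cxx1b, 1700047I17Rik2, Gm14308, Rnaset2b, Mfap1b, Mfap1a and Gm13298. With 3 counts over the 4 footprint libraries as the floor, footprints per mRNA were at least 6542-fold lower than at equality for Entpd4 and at least 4103-fold lower for Srp54a, a subunit of the signal recognition particle. Of the 27 such genes, 8 shared every value with another gene of the table (Cxx1a with Cxx1b, Mfap1a with Mfap1b, for example), which marks copies whose short reads cannot be assigned. Only identical values were looked for. Near-identical copies of the others, Entpd4 and Srp54a included, were not checked, so lost reads and absent translation cannot be told apart for them. A limit set after the values were seen left out genes with identical values or an overlapping neighbour and required at least 100 footprint counts. It did not remove near-identical genes such as Hbb-bs and Hbb-bt. Under this limit the lowest genes were Hbb-bt, Gm5148 (-6.90 ± 0.271), Hbb-bs, the mitochondrial protein Chchd2 (-6.20 ± 0.674), the α-globin Hba-a2 (-5.71 ± 0.243) and Ppp1r15a. Chchd2 had footprints of 3.89, 3.52, 1.26 and 12.1 CPM against mRNA of 318, 297, 227 and 297 CPM. Map3k10, a kinase upstream of JNK, stood at -5.02 ± 0.174 with 450 ± 74.0 CPM of mRNA.

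The 10 most abundant mRNAs by CPM did not share a level of TE. Hspa8, Hsp90ab1 (0.69 ± 0.0954) and the aldolase Aldoa (0.65 ± 0.075) had more footprints than mRNA in every library, without reaching the size limit. Eef1a1, Ubb, a polyubiquitin gene (-1.14 ± 0.112), Sparcl1, an astrocyte-secreted synaptogenic protein (-1.16 ± 0.403), Cpe, a neuropeptide-processing enzyme (-1.73 ± 0.329), and Kif5a, a neuronal kinesin (-1.81 ± 0.151), were sparse. Kif5a had footprints of 744, 684, 617 and 660 CPM against mRNA of 1853, 2276, 2562 and 2934 CPM. Gnas stood at -0.36 ± 0.0788 and lost its significance under TMM factors (-0.05). Sparcl1 and Cpe had less mRNA in replicate 1 than in the others (1359 and 1721 CPM, against at least 3056 and 3474 CPM), and Sparcl1 no longer passed the test without mRNA replicate 2 (TE -1.05, adjusted p = 0.0513).

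TE was at a similar level in cortices of the other labelled genotypes, which have libraries of their own. Most of these libraries share a batch with a WT library, so carry-over of translation and of assay, batch or counting cannot be told apart. The share of all genes past the same limits in these genotypes is not given here. Of the 1142 genes dense in WT, 85.8% had a TE of at least 1 in FXS, 79.5% in S6K1 and 76.6% in DKO. Of the 3319 sparse genes, 89.7%, 87.2% and 86.1% had a TE of at most -1. The median absolute difference of TE from WT was 0.138, 0.207 and 0.300. Atf4 stood at -4.66, -4.61 and -5.03.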

How the data were processed

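Counts of ribosome footprints and of polyA-selected mRNA per gene were used as the authors deposited them: whole numbers, not normalized, 1 column per library. Per the submitters' processing notes the tools were cutadapt 2.0, Bowtie2, TopHat2 and RSEM and the build mm10; the deposited tables are labelled as counts over coding sequences, and the order of the tools, the strand and the handling of reads with several matches are not given in the sources used here. CPM used the total count of each library, and log2 CPM added 0.5 counts. The main test was edgeR 4.0.16 (R 4.3.3), quasi-likelihood F-test with robust dispersions, footprints against mRNA in WT, without TMM factors, adjusted by Benjamini-Hochberg over 11453 genes, and it was tested on simulated data. DESeq2 1.42.0, TMM and RLE factors, other filters and left-out libraries were alternatives. SE of TE combines the spread of both assays. The 4 libraries per assay limit precision, and floors cover counting error only. Footprint replicates 3 and 4 share batch 4, and the tests and SE treat them as separate libraries. With both averaged, 1128 genes were dense and 3282 sparse, and 11 rather than 13 immediate early genes were dense.

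The members and gene lists were chosen with earlier results of these data known. The text names Atf4, the 10 highest and 10 lowest TE, the 10 most abundant mRNAs, the 2 highest and 2 lowest of each list, all stress-response, selenoprotein, iron and polyamine members, and further list members chosen after their values were seen; a few genes that this rule names are not reported here. Start sequences, spans and neighbours came from RefSeq (GRCm38.p6): 11416 genes matched with a span and 9184 with a start. TE by protein length was not run. Mitochondria-encoded genes and Fth1 were not analysed here. Replicate numbers follow accession order and only name libraries. No pair of libraries within an assay agreed within sampling noise.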

Additional observations from a re-analysis of the deposited data

Results flagged for a closer look

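Each of the following was a library far from the other 3 of its assay for a gene named above, by Dixon's test at the 95% level over 4 libraries. The test was run on 460 groups of 4 values and marked 25, and chance alone marks about 1 in 20 groups. Several lie in the same libraries. In mRNA replicate 1, Ddit3 (51.11 CPM, next 38.5), Gucy1a2 (18.88 CPM, next 9.97), Pak3 (30.52 CPM, next 15), Atp5k (281.8 CPM, next 217), Mief1 (18.21 CPM, next 12.35) and Zfp871 (31.86 CPM, next 13.27) were high. In the same library Penk (201.2 CPM, next 296.8), Rnaset2b (46.86 CPM, next 67.16) and Sepn1 (14.33 CPM, next 14.84) were low. In footprint replicate 4, Fos (374.3 CPM, next 169), Nr4a1 (367.5 CPM, next 128), Tuba1b (184.8 CPM, next 140), Clk1 (31.87 CPM, next 13.3), Ttr (32.87 CPM, next 11.73), Hsp90aa1 (4183 CPM, next 3955) and Sephs2 (26.11 CPM, next 23.15) were high. In other libraries, footprints of Drd2 (5.3 CPM, next 0.918) and Penk (197.5 CPM, next 67.31) were high in replicate 1, those of Gucy1a2 were high in replicate 3 (183.8 CPM, next 156) and those of Aldoc were low in replicate 1 (492.7 CPM, next 612). The mRNA of Ftl1 was low in replicate 3 (416.7 CPM, next 487), that of Ldha low in replicate 4 (393.9 CPM, next 439), that of the copies Mfap1a and Mfap1b low in replicate 4 (54.24 CPM, next 64.28) and that of Map3k10 high in replicate 4 (560.1 CPM, next 422).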

How the results depend on the processing

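The number of sparse genes stayed within 1.5 times its value of 3319 in all settings run, and the number of dense genes (1142) did so except for 1850 with TMM factors, 1897 with RLE size factors, 1890 with DESeq2 and 737 when tested against the 2-fold limit, where the sparse counts were 2516, 2471, 2487 and 2540. The scaling settings moved the median TE of all genes from -0.33 to -0.03 (TMM), -0.01 (RLE) and -0.01 (DESeq2). Leaving out each library in turn gave 1092 to 1196 dense and 3296 to 3375 sparse genes. Leaving out copies, genes with no footprint count and genes overlapping a neighbour, a setting chosen after seeing the data, gave 1001 and 2676. Class medians, as differences from the median gene, moved by more than their spread between libraries only where the genes included changed. For stress-response mRNAs (-1.45) the value was -0.817 with edgeR's filterByExpr in place of the mRNA minimum, -0.801 with a minimum of 1 CPM, -2.054 with 20 CPM and -0.859 without copies and overlapping genes. With 20 CPM, selenoproteins stood at -1.021, AMPA and NMDA receptors at -0.027, GABA-A receptors at -0.018, cholesterol synthesis at 0.156, replacement histones at 0.278 and Zfp genes at -0.579. Without copies and overlapping genes, selenoproteins stood at -0.858, AMPA and NMDA receptors at -0.030, GABA-A receptors at 0.771, postsynaptic scaffolds at 0.594 and splicing regulators at 0.363. Of single genes, Selk (-0.03) turned to 0.275 with TMM, 0.288 with RLE and 0.286 with DESeq2, and Tubb2a (-0.218) turned to 0.084, 0.097 and 0.101 in the same settings. No paired analysis was possible because replicate numbers were given in accession order and the labels tie no footprint library to an mRNA library. Depth limits low genes: the median SE was 0.195 at 5 to 10 CPM against 0.101 at 500 CPM or more.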

Other observations

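Gene families defined only by a shared symbol stem, with at least 10 members, were surveyed after the class results were seen, as values with no test. The families named were picked after their values were seen, and others with similar medians are not named. Of all genes, 29% were sparse and 9.97% dense. The 20 Zdhhc genes, which encode palmitoyltransferases of the Golgi and plasma membrane, had a median TE of -1.85 with 13 sparse, from Zdhhc4 (-4.63) to Zdhhc21 (1.06). The 11 Alg genes, which build the glycan of N-glycosylation, had a median of -1.53 with 8 sparse, the 17 Cyp genes of -1.51 with 12 sparse, the 11 Mfsd transporters of -1.44 with 8 sparse, the 14 tetraspanins (Tspan) of -1.40 with 8 sparse, and the 43 Gpr receptors of -1.36 with 28 sparse. The 166 Tmem genes had a median of -0.92 with 75 sparse and 3 dense, and the 204 Slc transporters of -0.74 with 86 sparse and 13 dense. The centrosomal Cep genes were also low, with 17 of 31 sparse and a median of -1.24.

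At the other end, 8 of the 12 Klf transcription factors were dense and none sparse (median 1.41), from Klf15 (-0.50) to Klf13 (2.85). Of the 10 Camk genes, 7 were dense, with Camk4 (2.77) highest, and 2 were sparse (median 1.43). The 28 Klhl adaptors of ubiquitin ligases had a median of 0.58 with 7 dense, the 32 Vps genes of vesicle sorting of 0.54 with 7 dense, and the 12 Pcdhga protocadherins, which share part of their sequence, of 0.67 with 2 dense and none sparse. The 10 Exosc and 11 Ints genes, subunits of the RNA exosome and the Integrator complex, held neither dense nor sparse members, with medians of -0.19 and 0.13.

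Outside the genes that met the mRNA minimum, 218 had a mean of at least 5 CPM of footprints, among them 14 replication-dependent histone genes. Hist2h4 had 7360 footprint counts against 6 mRNA counts over 4 libraries each, and Hist1h1d 6749 against 9.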
